A study of Arabidopsis thaliana with 6 samples.

Results

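The 10 genes described here encode enzymes and proteins of glucosinolate breakdown in Arabidopsis thaliana, 10 of the 37336 genes in the deposited table. They are the myrosinases TGG1 (AT5G26000) and TGG2 (AT5G25980) and the modifiers ESM1 (AT3G14210) and MVP1 (AT1G54030). The specifier proteins are ESP (AT1G54040), NSP1 (AT3G16400), NSP2 (AT2G33070), NSP3 (AT3G16390), NSP4 (AT3G16410) and NSP5 (AT5G48180). RNA came from self-pollinated siliques, the fruits with their developing seeds, collected between 1 and 5 days after pollination. The mutant group was the double mutant eml1-2 eml3-4, which carries alleles of a pair of genes that the series title calls histone readers, and the comparison group was the wild type (WT). Each genotype had 3 libraries of polyadenylated RNA. The sources used here do not give the accession of either genotype, and nothing says that separate plants or harvests gave the libraries. The p-values therefore cover the spread between these libraries only, and that spread may be technical. The genes were selected with the measured mutant and WT levels of these libraries in view, so their own differences are given as a description with no test.

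Glucosinolates are sulfur-rich glucosides that Brassicaceae store apart from myrosinases, the thioglucosidases that cleave them when tissue is damaged. Myrosinases are known from myrosin idioblasts, which line the veins, and from guard cells. The released aglycone rearranges to an isothiocyanate by default, and specifier proteins redirect it. ESP (epithiospecifier protein) favours epithionitriles and nitriles, and the NSPs (nitrile-specifier proteins) favour simple nitriles. ESM1 (epithiospecifier modifier) favours isothiocyanates over nitriles. MVP1 belongs to the same GDSL lipase-like family as ESM1 and has been reported to interact with TGG2. Accessions of the species are known to differ at ESM1, ESP and the AOP and MAM genes of glucosinolate synthesis.

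The coding sequences show how the proteins of each role are related. They are taken from RefSeq for the assembly TAIR10.1, in which all 10 genes were found, and are the reference sequences, not alleles read from these libraries. Each stretch is 11 codons, 5′ to 3′ on the coding strand. The first set is shown because the acid/base residue of the active site separates classical myrosinases, which carry glutamine there, from other beta-glucosidases, which carry glutamate. Capitals mark that codon, which is codon 205 of TGG1 and codon 217 of TGG2. BGLU34 and BGLU35 are the root myrosinases TGG4 and TGG5, and PEN2 is an atypical myrosinase that acts on indole glucosinolates. BGLU18 is a beta-glucosidase of endoplasmic reticulum (ER) bodies.
TGG1: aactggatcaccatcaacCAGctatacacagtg
TGG2: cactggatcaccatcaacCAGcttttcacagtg
BGLU34: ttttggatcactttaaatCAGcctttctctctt
BGLU35: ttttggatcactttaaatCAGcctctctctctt
PEN2: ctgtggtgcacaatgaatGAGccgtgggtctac
BGLU18: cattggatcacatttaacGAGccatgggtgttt

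The second set is shown because specifier proteins bind iron through a glutamate, an aspartate and a histidine, whose codons are in capitals. The glutamate codon is codon 260 of ESP, 386 of NSP1 and NSP3, 389 of NSP2 and 535 of NSP4. The search for these residues gave no match in NSP5, from which nothing is drawn.
ESP: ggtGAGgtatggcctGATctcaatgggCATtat
NSP1: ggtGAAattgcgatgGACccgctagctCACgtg
NSP2: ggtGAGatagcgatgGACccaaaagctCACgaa
NSP3: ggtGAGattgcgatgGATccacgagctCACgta
NSP4: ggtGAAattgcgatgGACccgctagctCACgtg

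The last stretch holds codon 43 of ESM1, in capitals, which encodes the serine of the GDS letters of the GDSL family.
ESM1: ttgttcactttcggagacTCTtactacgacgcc

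Similar genes can share reads, and how the authors counted such reads is not given in the sources used here. TGG1 and TGG2 shared 73.2% of 534 aligned residues, with a longest identical coding run of 55 bases. ESM1 and MVP1 shared 40.9% of 374 aligned residues. The 15 pairs of specifiers shared 52.0% to 93.4%. NSP1 and NSP4 were the closest pair, at 93.4%, with an identical coding run of 366 bases, so reads of NSP1 and NSP4 may not be told apart and both values are uncertain. NSP1 and NSP3 shared 90.1% of residues, with an identical run of 68 bases. ESP has a near-identical pseudogene, AT3G29634, which had 2 reads over the 6 libraries.

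The reads counted to genes, as recovered from the deposited values, came to 26771227 to 39246167 per library. Values are normalized read counts, that is, counts per gene scaled by a size factor for each library. EML3 was at 2129 to 2718 in WT and 173 to 198 in the mutant, 12.7-fold lower (limma adjusted p = 2.24e-06). EML1 was at 1190 to 1365 in WT and 1072 to 1236 in the mutant (limma adjusted p = 0.499), and a whole-gene count is no check of that allele. Mutant replicate 3 stood apart from the other mutant libraries: across genes it correlated with them at 0.930 and 0.931, against 0.979 between replicates 1 and 2. With the WT libraries, mutant replicates 1 and 2 correlated at 0.909 to 0.930, and mutant replicate 3 at 0.888 to 0.921. WT replicate 3 correlated with WT replicates 1 and 2 at 0.948 and 0.954, against 0.973 between those. The summed level of 10 seed storage markers was 69994 in mutant replicate 3, against 307 and 325 in the other mutant libraries and 289 to 662 in WT. The storage markers gave 0 calls in limma, 1 gene at an unadjusted p under 0.05, 0 calls in edgeR and 1 in DESeq2. In the authors' deposited DESeq2 results, 9 of these markers had a blank adjusted p. A missing call there is therefore no sign of equal levels. Markers of the fruit wall, seed coat and endosperm were present in every library, and their sums are given below. In bulk tissue, fewer cells of a type and less RNA per cell cannot be told apart.

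The myrosinase genes differed in opposite directions. TGG2 was 79.4-fold higher in the mutant and TGG1 was 2.28-fold lower, by the ratio of group means, so that the mutant held more TGG2 than TGG1 while WT held nearly all TGG1. TGG1 was at 41508, 57675 and 54300.3 in WT replicates 1, 2 and 3 and at 23107, 24774 and 19297 in mutant replicates 1, 2 and 3. Every mutant library was below every WT library, with means of 51161 ± 8528 in WT and 22393 ± 2807 in the mutant (SD, n = 3).

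TGG2 was at 405, 413 and 398 in WT and at 33931, 33823 and 28783 in the mutant. The groups did not overlap, and the WT libraries differed little among themselves, with a coefficient of variation of 1.90%. The means were 405 ± 7.72 in WT and 32179 ± 2942 in the mutant (SD, n = 3). The TGG2 count in WT was 0.717% to 0.976% of the TGG1 count, and whether reads of TGG1 contribute to it was not tested. On the log2(value + 1) scale, on which differences are mutant minus WT, the TGG2 difference was 6.30 and ran from 6.26 to 6.38 with each library left out in turn. The TGG1 difference was −1.19 and ran from −1.33 to −1.08.

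The sum of both myrosinases did not separate the genotypes. Per kilobase of exon, the scale used here to compare genes, TGG1 and TGG2 together were at 22133, 30677 and 28887 in WT and at 29430, 30256 and 24804 in the mutant. These groups overlapped, with means of 27232 ± 4506 and 28164 ± 2938 (SD, n = 3). TGG2 made up 0.929%, 0.684% and 0.699% of that sum in WT and 58.5%, 56.7% and 58.9% in the mutant. The share of TGG2 varied by 1.15 percentage points (SD, n = 3) among the mutant libraries, replicate 3 included.

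**Figure D1:**
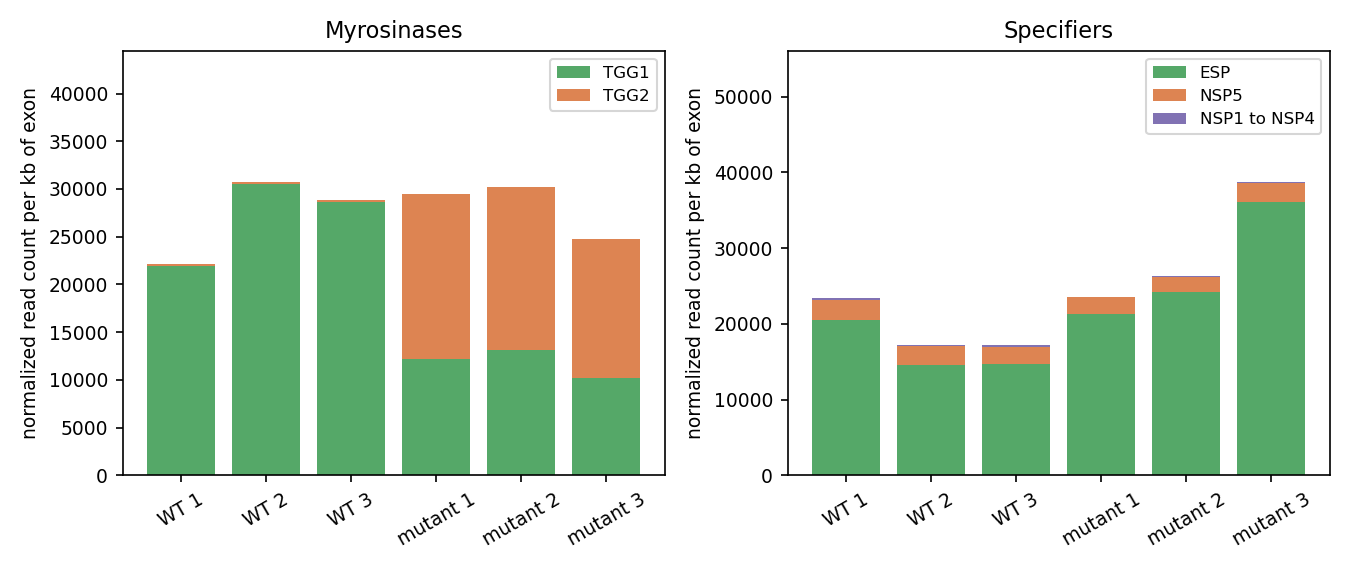
Stacked bars give the normalized read count per kilobase of exon in each of the 6 libraries, for TGG1 and TGG2 on the left and for the 6 specifier genes on the right. The myrosinase bars reach 22133 to 30677 in WT and 24804 to 30256 in the mutant, with TGG2 visible in the mutant bars, and ESP fills most of each specifier bar.

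Of the modifiers, ESM1 was 133-fold lower in the mutant and the MVP1 libraries of the genotypes overlapped. ESM1 was at 3975, 4041 and 3905 in WT and at 13.8, 25.3 and 50.4 in the mutant. The groups were far apart, with means of 3974 ± 67.8 and 29.8 ± 18.7 (SD, n = 3). The coefficient of variation was 1.71% in WT and 62.7% in the mutant, where replicate 3 was highest. The log2 difference of ESM1 was −7.19, from −7.65 to −6.76 with each library left out, and its ratio of means was 203 without mutant replicate 3.

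MVP1 was at 2915, 2491 and 2404 in WT and at 2746, 2643 and 2381 in the mutant. The groups overlapped, with means of 2603 ± 274 and 2590.2 ± 188 (SD, n = 3). MVP1 is encoded next to ESP, and its level and that of ESP are compared with their neighbours below.

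Among the specifiers, ESP and NSP5 were abundant in both genotypes, and NSP1 to NSP4 were scarce. ESP was at 38104, 27134 and 27239 in WT and at 39472, 44875 and 67073 in the mutant. All mutant libraries were above all WT libraries, though mutant replicate 1 was only just above WT replicate 1. The means were 30826 ± 6304 and 50473 ± 14628 (SD, n = 3), 1.64-fold higher in the mutant. The log2 difference of ESP was 0.69 with all libraries and 0.47 without mutant replicate 3.

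NSP5, the specifier of the family that is most distant in sequence from the other NSPs, was at 4634, 4185 and 3939 in WT and at 3906, 3555 and 4292 in the mutant. These groups overlapped, with means of 4253 ± 353 and 3917 ± 369 (SD, n = 3). NSP1, which promotes simple nitriles, was at 319, 351 and 413 in WT and at 60.9, 60.8 and 84.4 in the mutant. Its groups did not overlap, and its mutant mean was 5.26-fold lower, at 68.7 ± 13.6 against 361 ± 47.4 (SD, n = 3).

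The remaining specifiers rest on few reads. NSP3 was at 65.4, 68.6 and 11.3 in WT and at 0, 0 and 2.52 in the mutant. It had 158 reads in WT and 2 in the mutant. The ratio of reads pooled over each group and scaled by summed size factors was 76.8, with a 95% counting interval of 20.9 to 639.5. The NSP3 ratio of group means was 57.6. WT replicate 3 was well below the other WT libraries. Without mutant replicate 1 the pooled NSP3 ratio was 45.4. Without mutant replicate 3, which held both mutant reads, NSP3 was at least 37.7-fold lower. NSP4 had no read in WT and was at 31.6, 10.1 and 10.1 in the mutant, on 57 reads, which is at least 19.5-fold higher against a floor of 3 reads over the WT group. Mutant replicate 1 held 39 of the 57, and without it the bound is 10.4-fold, while without WT replicate 1 it is 12.0-fold. NSP4 is the gene whose coding sequence shares the long identical run with NSP1. NSP2 was at 1.68, 0 and 0 in WT and at 0, 1.01 and 7.56 in the mutant, on 2 WT and 7 mutant reads. Its pooled mutant to WT ratio was 3.60, with a counting interval of 0.686 to 35.5, and its ratio of group means was 5.11. Mutant replicate 3 held 6 of the 7 NSP2 reads, and without it the log2 difference went from 0.90 to 0.03. The intervals and the floor cover counting error only and take each read as independent. Low counts were mostly even, so the intervals may be too narrow and the bounds too high.

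**Figure D2:**
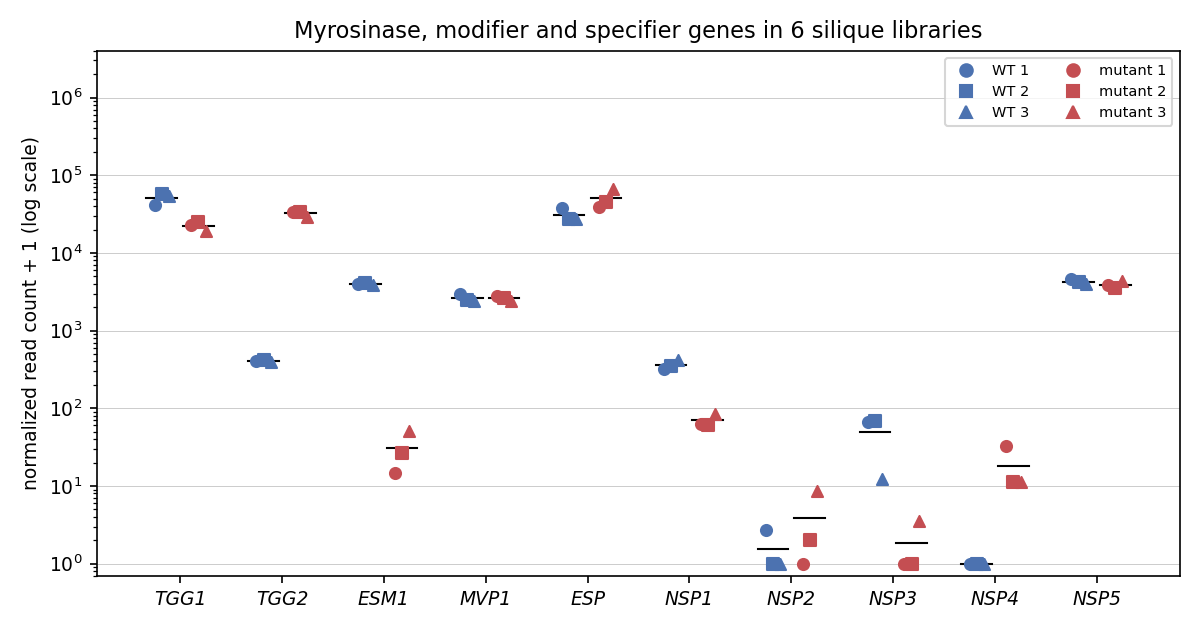
Points give the normalized read count + 1 of each of the 10 genes in each library, on a log scale, with a line at each genotype's mean. TGG2 and ESM1 show the widest gaps, at 405 against 32179 and at 3974 against 29.8 on average, while MVP1 and NSP5 overlap.

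Per kilobase, ESP made up 84.7% to 87.7% of the summed specifier level in WT and 90.2% to 93.4% in the mutant, without overlap. NSP5 made up 11.5% to 14.0% in WT and 6.42% to 9.59% in the mutant. NSP1 made up 0.663% to 1.17% in WT and 0.106% to 0.125% in the mutant. The specifier sum was 23393, 17242 and 17153 in WT and 23557, 26256 and 38652 in the mutant, the highest value again in replicate 3. Divided by the myrosinase sum, it gave ratios of 1.06, 0.562 and 0.594 in WT and 0.800, 0.868 and 1.56 in the mutant, and these overlapped. The ratio of ESP to ESM1, which act in opposite directions on nitrile formation, was 10.1, 7.05 and 7.33 in WT and 3006, 1862 and 1398 in the mutant.

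The order of levels per kilobase in WT was TGG1 at 27026, ESP at 16600, NSP5 at 2460, ESM1 at 2037, MVP1 at 1607, TGG2 at 206, NSP1 at 175 and NSP3 at 28.1. In the mutant it was ESP at 27180, TGG2 at 16334, TGG1 at 11829, NSP5 at 2266, MVP1 at 1599, NSP1 at 33.3, ESM1 at 15.3 and NSP4 at 7.17. Neighbours in the WT order had separate ranges over the libraries down to NSP3, and in the mutant order the first pair to overlap was ESM1 and NSP4. Among 21613 genes ranked per kilobase in each library, TGG2 stood at 11872 to 12241 in WT and at 100 to 138 in the mutant. TGG1 stood at 46 to 72 in WT and at 146 to 234 in the mutant. ESM1 stood at 1557 to 1715 in WT and at 19018 to 20682 in the mutant, and ESP at 81 to 112 and 54 to 76.

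Of the 10 genes, 8 had a mean of at least 10 and entered the fit across all genes. Among those, 5 were past the threshold of 0.05 on the adjusted p, TGG2 in the higher direction and TGG1, ESM1, NSP1 and NSP3 in the lower, where 6.79% of all tested genes were past it, 3.69% higher and 3.10% lower. The libraries of the genotypes did not overlap for 6 of the 8, against 26.9% of all tested genes. Since the genes were chosen on this contrast, nothing is read from these counts. NSP3, with a mean of 24.6, was the lowest gene inside the minimum, and NSP4, with a mean of 8.64, was the highest outside it. The authors' deposited table gives log2 fold changes of 6.31 for TGG2, −1.19 for TGG1, −7.08 for ESM1, 0.71 for ESP and −2.40 for NSP1.

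The share of genes past the threshold around these loci was near that of all genes in limma and larger than it in DESeq2. The tested genes nearest to each locus, 5 on each side and the 2 between TGG2 and TGG1, gave 62 neighbours over 6 loci. Of these, 6 passed the threshold (9.68%, against 6.79% of all tested genes), 3 higher and 3 lower, with a median log2 difference of −0.05 against 0.00 over all tested genes. DESeq2 called 10 of the 62, a larger share than the 2363 of the 24510 genes that it tested, and edgeR called 6. In limma 20 of the 62 had an unadjusted p under 0.05, for which no share over all genes is given here. At the TGG locus 0 of 12 passed in limma, with 6 at an unadjusted p under 0.05, 0 calls in edgeR and 1 in DESeq2. Both genes between the myrosinases were low. AT5G25990 was at 25.2, 18.6 and 34.9 in WT and at 0.811, 8.10 and 0 in the mutant (limma adjusted p = 0.0927). AT5G25995 was at 84.7, 50.0 and 48.5 in WT and at 21.9, 12.2 and 15.1 in the mutant (limma adjusted p = 0.0639). Neither passed, although the genotypes did not overlap in either, and both values are uncertain because the genes overlap each other.

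Beside ESM1, AT3G14220 rose from 1208 to 1914, 1.58-fold (limma adjusted p = 0.00877), in the direction opposite to ESM1. Beside MVP1 and ESP, AT1G54020 rose 2.05-fold and AT1G54070 fell from 500 to 250, 2.00-fold (limma adjusted p = 0.0386). Beside NSP5, AT5G48140 fell from 1176 to 535, 2.20-fold (limma adjusted p = 0.0223), and AT5G48290 fell from 114 to 34.7, 3.28-fold (limma adjusted p = 0.0328). At the locus of NSP3, NSP1 and NSP4 the gene that passed was JR1, a jacalin-related lectin described below. Around NSP2, 0 of 10 neighbours passed in limma, with 2 at an unadjusted p under 0.05, 0 calls in edgeR and 2 in DESeq2. Over all loci, leaving out WT replicate 1, 2 or 3 left 3, 2 or 3 neighbours past the threshold, and leaving out mutant replicate 1, 2 or 3 gave 3, 2 or 8.

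**Figure D3:**
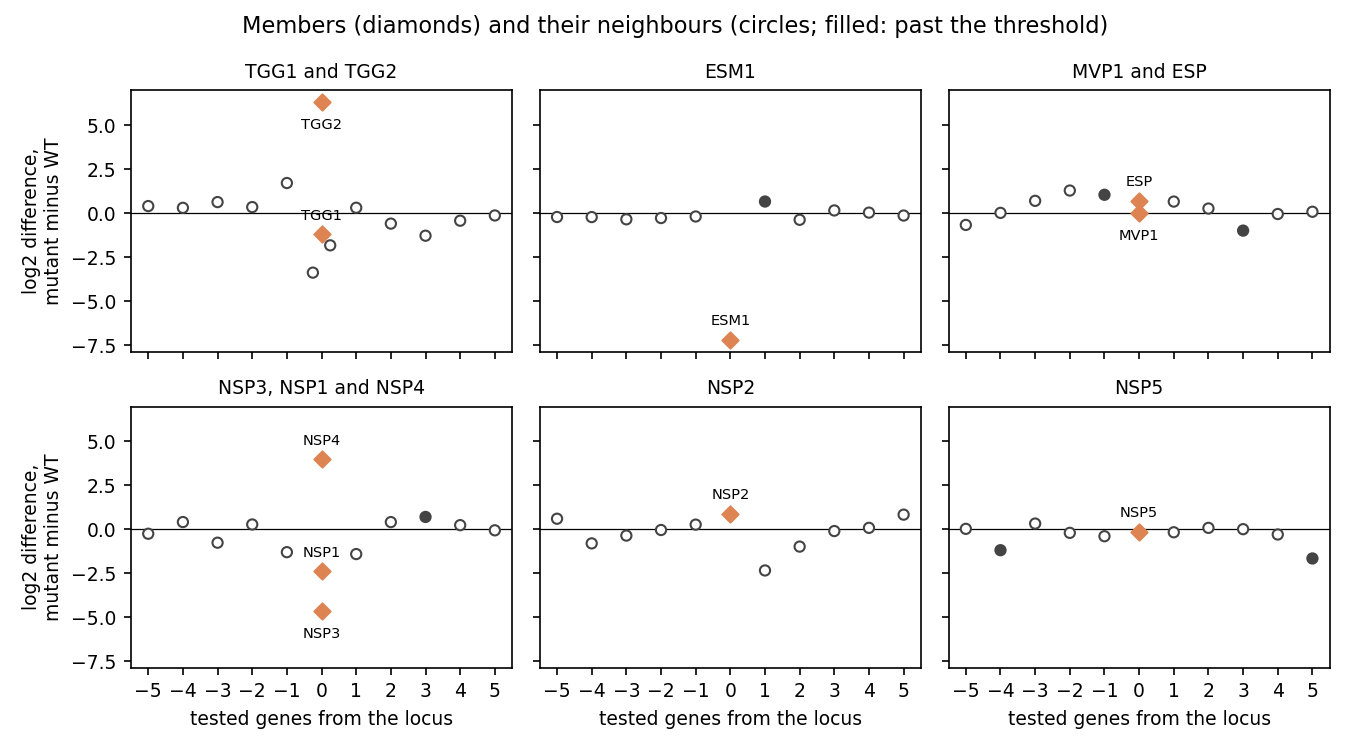
Each panel shows 1 locus, with the log2 difference (mutant minus WT) of the described genes as diamonds and of tested neighbours as circles, filled where past the threshold, against the number of genes from the locus, with the 2 genes between TGG2 and TGG1 near 0. TGG2 at 6.30 and ESM1 at −7.19 lie far from their neighbours, of which 6 in all are filled.

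Genes other than those described above, here called other glucosinolate genes, were read from 8 lists of 90 genes. The lists also hold beta-glucosidases and ER body genes for which no role in glucosinolate breakdown is given here. Of the 90, 69 were tested and 16 passed (23.2%, against 6.79% of all tested genes), 10 higher and 6 lower. JR1 and AT1G54020 are also among the 6 neighbours that passed. The median log2 difference of the lists was 0.17 against 0.00 over all tested genes. The lists were chosen with earlier results of these data known, so nothing is read from these shares. Without mutant replicate 3, 29 passed, 15 higher and 14 lower, with all 16 among them. The count was 10, 8 or 10 on leaving out WT replicate 1, 2 or 3, and 7 on leaving out mutant replicate 1 or 2. DIN2, BGLU29, JAL23, AT1G54020, MEB1, AOP2 and MAM1 passed with each library left out in turn, and the other 9 genes lost the call without at least 1 library.

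Among other beta-glucosidases, 3 of 9 tested genes passed in limma, all lower in the mutant, while edgeR and DESeq2 each called 4 and the median log2 difference of the list was 0.30. BGLU24, at 29.4 in WT and 73.4 in the mutant (limma adjusted p = 0.121), and BGLU28, at 243 and 378 (limma adjusted p = 0.126), had separate groups and did not pass. Without mutant replicate 3, 1 gene of the list passed in the higher direction and 3 in the lower. BGLU29 was at 2039 ± 252 in WT and 451 ± 361 in the mutant (SD, n = 3), 4.52-fold lower (limma adjusted p = 0.00614), or 8.38-fold without mutant replicate 3. DIN2 (BGLU30), a glucosidase known to respond to darkness and sugar starvation, fell from 1021 ± 136 to 344 ± 56.7 (SD, n = 3), 2.97-fold (limma adjusted p = 0.000672). BGLU36 fell 3.90-fold, from 150 to 38.3 (limma adjusted p = 0.0355). The myrosinases TGG4 and TGG5 had 2 and 4 reads over all libraries, and PEN2 was at 1598 ± 178 in WT and 1507 ± 79.2 in the mutant (SD, n = 3; limma adjusted p = 0.769). BGLU18 was at 45776 ± 2632 in WT and 69172 ± 11890 in the mutant (SD, n = 3), all mutant libraries above all WT libraries, and did not pass (limma adjusted p = 0.0508).

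Among the proteins that bind or accompany myrosinases, 3 of 9 tested genes passed, all higher in the mutant. PBP1, a lectin of this list, was at 69.6 ± 24.2 in WT and 25.2 ± 7.98 in the mutant (SD, n = 3), with separate groups, and did not pass (limma adjusted p = 0.121). The myrosinase-binding proteins MBP1 and MBP2 had higher means in the mutant and did not pass. MBP1 was at 2474 ± 192 in WT and 3139 ± 409 in the mutant, with overlap (SD, n = 3; limma adjusted p = 0.153). MBP2 was at 13551 ± 2067 and 17717 ± 678, with separate groups (SD, n = 3; limma adjusted p = 0.0965). JAL23, a jacalin-related lectin, rose from 1417 ± 235 to 4689 ± 345 (SD, n = 3), 3.31-fold (limma adjusted p = 6.78e-05). AT1G54020, a GDSL-type gene beside MVP1, rose from 829 ± 192 to 1697 ± 188 (SD, n = 3; limma adjusted p = 0.00568). JR1 rose 1.63-fold (limma adjusted p = 0.011), and its value is uncertain because it overlaps JAL34. The near-identical stretch that JR1 and JAL34 share may be that overlap. Of the nitrilases, which convert nitriles further, 1 of 4 passed, and the median log2 difference was −0.56. NIT4, which acts on beta-cyanoalanine, rose from 384 ± 7.68 to 613 ± 30.4 (SD, n = 3; limma adjusted p = 0.0264). NIT2 was at 2152 ± 180 in WT and 1049 ± 684 in the mutant (SD, n = 3; limma adjusted p = 0.0546) and NIT3 at 114 ± 16.6 and 54.8 ± 4.08 (SD, n = 3; limma adjusted p = 0.0862), both with separate groups. Without mutant replicate 3, 1 nitrilase passed in each direction. Of 5 genes of ER bodies, the compartments that hold beta-glucosidases, MEB1 rose 1.68-fold (limma adjusted p = 0.00499) and TSA1 rose 1.44-fold (limma adjusted p = 0.0277). NAI2, which is needed for ER body formation, fell from 70.9 ± 1.37 to 21.7 ± 6.52 (SD, n = 3; limma adjusted p = 0.0489). That call is at the threshold and was lost in edgeR (adjusted p = 0.064) and in 9 other alternatives.

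Of 20 tested genes of aliphatic glucosinolate synthesis, 2 rose and 2 fell in limma, while edgeR called 2 and DESeq2 called 4. AOP2 forms alkenyl side chains, and the reference calls the gene a transcribed pseudogene. On 4 reads in WT, all in replicate 1, its level rose from 1.12 ± 1.94 to 125 ± 32.7 (SD, n = 3; limma adjusted p = 0.00172). AOP3, which forms hydroxyalkyl side chains, fell from 786 ± 36.0 to 128 ± 204 (SD, n = 3; limma adjusted p = 0.0368). In the mutant libraries AOP3 was at 13.8, 6.08 and 363, with the highest in replicate 3, and without that library its fold went from 6.16 to 79.1. The AOP3 call was lost in edgeR (adjusted p = 0.162) and in DESeq2 (adjusted p = 0.321), where the log2 difference was −2.67 and −2.62, against −4.55 in limma. MAM1, a chain-elongation enzyme, rose from 592 ± 14.9 to 1885 ± 693 (SD, n = 3), 3.19-fold (limma adjusted p = 0.00174), with mutant values of 1399.8, 1577 and 2679. IMS2, the neighbouring chain-elongation gene also known as MAM3, fell from 186 ± 35.1 to 32.8 ± 38.2 (SD, n = 3), 5.68-fold (limma adjusted p = 0.0228), or 17.3-fold without mutant replicate 3. The IMS2 call was lost in edgeR (adjusted p = 0.0569). Without mutant replicate 3, 10 genes of this list passed, 3 higher and 7 lower.

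Of 8 tested genes of the core shared by both glucosinolate types, SOT16, a sulfotransferase of the last core step, rose 1.60-fold (limma adjusted p = 0.0115). Of 8 tested regulators and transporters, MYB29, a regulator of aliphatic synthesis, rose from 45.3 ± 18.5 to 154 ± 21.0 (SD, n = 3), 3.40-fold (limma adjusted p = 0.0211). MYB28 and MYB76 of the same list were lower in the mutant with separate groups and did not pass. MYB28 was at 1046 ± 41.4 in WT and 767 ± 168 in the mutant (SD, n = 3; limma adjusted p = 0.124). MYB76 was at 17.8 ± 6.58 and 3.90 ± 5.41 (SD, n = 3; limma adjusted p = 0.226). Without mutant replicate 3, 1 gene of this list passed in each direction. Of 6 tested genes of indolic synthesis, 0 passed in limma, with 1 at an unadjusted p under 0.05 and 0 calls in edgeR and in DESeq2. CYP83B1, an early indolic enzyme, was at 909 in WT and 1273 in the mutant (limma adjusted p = 0.154). CYP81F3, which hydroxylates indole glucosinolates, was at 90.9 and 147 (limma adjusted p = 0.24).

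**Figure D4:**
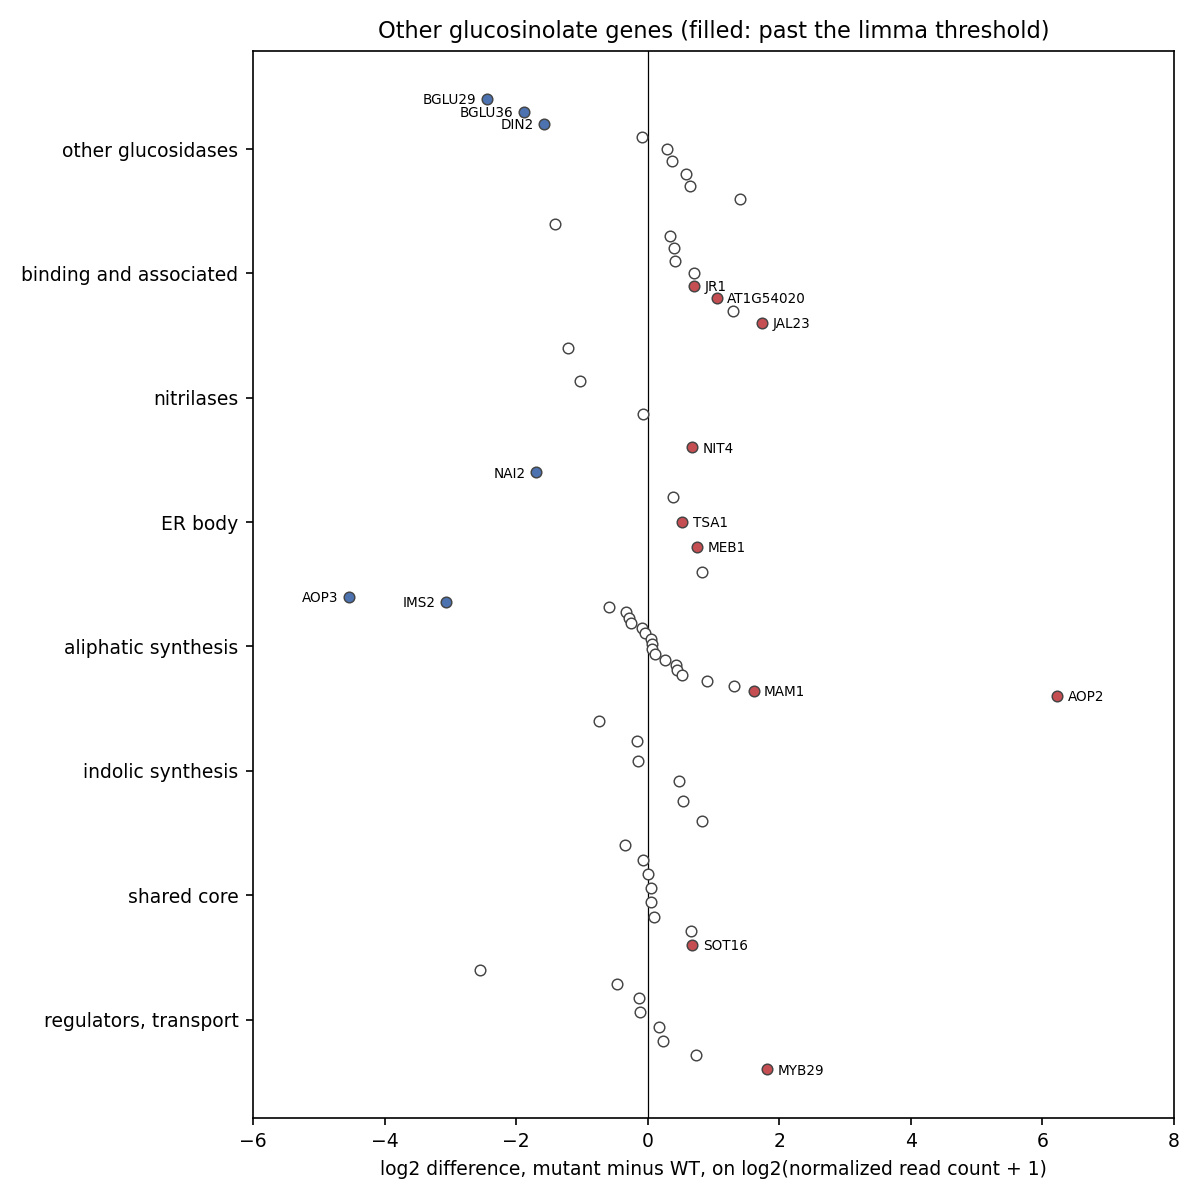
Each circle is 1 tested gene of the 8 lists of other glucosinolate genes, placed by its log2 difference (mutant minus WT) and filled where past the threshold. The 16 filled genes are named, and the AOP3 call was lost in edgeR and DESeq2.

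Markers of the cells that hold myrosinases were read beside TGG1 and TGG2. Of 18 regulators and markers of myrosin idioblasts and guard cells, all tested, 1 passed in limma (5.56%, against 6.79% of all tested genes), with 4 at an unadjusted p under 0.05, 1 call in edgeR and 2 in DESeq2. The median log2 difference of the list was 0.08. Without mutant replicate 3, 3 passed, 1 higher and 2 lower in the mutant. KAT1, a guard cell potassium channel, rose from 384 ± 30.1 to 826 ± 75.1 (SD, n = 3), 2.15-fold (limma adjusted p = 0.00228). GORK, another guard cell potassium channel, was at 288 ± 65.9 in WT and 494 ± 72.2 in the mutant (SD, n = 3; limma adjusted p = 0.0565), with separate groups. The summed level of the list was 8153 to 8345 in WT and 8714 to 10676 in the mutant, and none of its genes was at 0 in every library. FAMA, the regulator of both cell types, was at 530 ± 58.3 in WT and 489 ± 77.5 in the mutant (SD, n = 3; limma adjusted p = 0.749). The summed levels in WT and mutant were 8256 to 8968 and 7671 to 8451 for 7 fruit wall markers, of which SHP1 fell 1.44-fold (limma adjusted p = 0.0273), a value that is uncertain because SHP1 overlaps GAUT15. They were 20860 to 26534 and 22463 to 22572 for 5 seed coat markers, and 455 to 617 and 425 to 559 for 5 endosperm markers, 4 of them tested. In these 2 lists 0 passed in limma, with 0 at an unadjusted p under 0.05 and 0 calls in edgeR and in DESeq2. Of the fruit wall markers, 3 had an unadjusted p under 0.05, and edgeR and DESeq2 each called 2. Without mutant replicate 3, 0 seed coat, 1 endosperm and 2 fruit wall markers passed in limma, all of them lower in the mutant. The part of these cell types in the TGG, ESM1 and ESP values was not tested.

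The genes most like each of 4 described genes were found by the root mean square difference of centred log2 values over the 6 libraries, among 8195 genes with a symbol and a mean of at least 50. For TGG1 they were CYP81D5, a cytochrome P450, at 0.107 and CYTC6A at 0.130, the latter uncertain because it overlaps AT5G45030. For TGG2 they were EXPA23, an expansin, at 0.445 and SADHU6-1, a retroelement-derived gene, at 0.522, both with a near-identical copy. For ESM1 they were SK9, an SKP1-like gene, at 0.585 and SADHU3-1 at 0.948. For NSP2, which had 9 reads in all, they were ALD1 at 0.398 and CHR42 at 0.426.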

How the data were processed

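The authors deposited a table of normalized signal, counts per gene scaled by a size factor for each library, and a table of log2 fold changes with p-values, per the file headers. The tools named, per the submitters' processing notes and without a role, are STAR 2.5.2a, Trim Galore, SAMtools, Subread, featureCounts and DESeq2. The build, the annotation, the strand setting and how multi-mapping reads were treated: not given in the sources used here. No coordinates are therefore printed. All values (100%) were whole multiples of 1 read to within 1e-06, so whole reads were recovered. Even counts made up 69.3% to 73.9% of genes with 1 to 20 reads, so reads may not be independent. Counting intervals and the floor cover counting error only and take reads as independent, so the intervals may be too narrow.

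Genes with a mean of at least 10 over the 6 libraries, 21751 in all, were tested with limma 3.58.1 (R 4.3.3, variance trend) on log2(value + 1), which understates changes of low genes, two-sided, with Benjamini-Hochberg adjustment at 0.05. Printed folds are ratios of group means. Folds and bounds of NSP2, NSP3 and NSP4 rest on pooled reads over summed size factors unless group means are named. The count interval is the exact binomial at 95%. The members, the gene lists and the naming rule were chosen with earlier results of these data known. Named were all 10 members, up to 4 called genes per list (2 by p where none passed), up to 3 called neighbours per locus, and 2 genes most like each of TGG1, TGG2, ESM1 and NSP2. BGLU18, BGLU24, BGLU28, PBP1, NIT2, NIT3, GORK, PEN2, TGG4, TGG5, KAT1, FAMA, SHP1 and the genes between TGG2 and TGG1 were named after their values were seen. The same holds for MBP1, MBP2, MYB28 and MYB76. RefSeq TAIR10.1 gave symbols, neighbour order, exon lengths and sequences, with 37051 of 37336 IDs matched. BLAST 2.17.0 marked near-identical copies at 95% identity over 150 bases. Scripts were tested on simulated data. Alternatives were pseudocounts of 0.5 and 5, no minimum or a minimum of 50, other scalings, a replicate block, each library left out, edgeR 4.0.16 and DESeq2 1.42.0.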

Additional observations from a re-analysis of the deposited data

How the results depend on the processing

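Over all genes 1476 passed in limma, 802 higher and 674 lower; DESeq2 gave 2363 and leaving out 1 library gave 571 to 2613. With libraries rescaled to one total, 615 were higher and 863 lower. Of the other glucosinolate genes 7 to 29 passed with 1 library left out, against 16, and the highest count came without mutant replicate 3. Of the neighbours 2 to 8 passed, against 6, and DESeq2 gave 10. The replicate numbers do not pair the samples: deviations of same-numbered libraries correlated at −0.08, −0.00 and −0.17. With the replicate block, limma gave 1203 calls over all genes, 15 among the glucosinolate lists and 4 among neighbours, and edgeR gave 1009, 12 and 4. For 22 named genes of the lists and neighbours, 351 values under 16 alternatives kept the direction, 278 on the same side of the threshold, 72 with the call lost and 1 newly called. DIN2, BGLU29, JAL23, AT1G54020, MEB1, AOP2 and MAM1 kept the call under every alternative. NAI2, NIT4, TSA1, IMS2, AOP3 and AT5G48290 lost it on leaving out any library other than mutant replicate 3, NAI2, IMS2 and AOP3 also in edgeR and AOP3 in DESeq2. NAI2 lost it with a pseudocount of 0.5 and with no minimum too, and NAI2, NIT4, AT5G48290 and AT1G54070 lost it in both fits with the replicate block. BGLU36, JR1, SOT16, MYB29, AT5G48140, AT1G54070 and AT3G14220 each lost it without 2 to 4 of the libraries. Among the described genes, NSP2 moved from a log2 difference of 0.90 to 2.29 in DESeq2 and to 0.03 without mutant replicate 3, NSP3 from −4.66 to −2.94 with a pseudocount of 5 and −6.10 in DESeq2, and NSP4 from 3.99 to 4.94 and 2.02 with pseudocounts of 0.5 and 5 and to 6.60 in DESeq2. The cause was not tested. Depth limits NSP2, NSP3 and NSP4, which had 9, 160 and 57 reads.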
